A study of Mus musculus with 24 samples.

Results

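This report follows 10 genes for enzymes of glycogen breakdown and glycolysis in mouse muscle cells in culture: Pygm, Hk2, Pfkm, Aldoa, Pgam1, Pgam2, Eno1, Eno3, Ldha and Ldhb. They were taken by gene name from the 28109 genes of the deposited table, each name matched 1 row, and all 10 had enough counts to be tested. C2C12 cells, an established mouse myoblast line labelled as strain C3H, and primary myoblasts (PMs) labelled as strain C57/B6, which the study isolated from wild-type mice a few weeks old, were transfected either with siRNAs against both Tead1 and Tead4 (siTead1/4) or with a luciferase siRNA (siControl). RNA was taken after transfection and before the change of medium (day 0). It was taken again on days 3 and 6 in low horse serum, the medium in which myoblasts fuse into myotubes. The 2 cell types, 2 siRNA conditions and 3 days gave 12 groups of 2 libraries, 24 libraries in all. PMs grew on matrigel in another basal medium than C2C12 cells, so cell type, strain, medium and matrix cannot be told apart. C2C12 is 1 line, all groups of a cell type share its medium and transfection, and siTead1/4 cells lost only part of the targeted transcripts. Tead1 and Tead4 are transcription factors that bind the MCAT motif, found in front of many muscle genes, and the comparison asks how far the switch to muscle isoforms ran without them.

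Glycolysis splits glucose into pyruvate and yields ATP without oxygen, and fast skeletal muscle relies on it for short bursts of work. Most steps are run by small families of isoenzymes: a form found in nearly all cells is joined or replaced by a form made in differentiated muscle. Muscle draws glucose units from glycogen through Pygm, the muscle glycogen phosphorylase, while Hk2, the insulin-responsive hexokinase, traps glucose taken up from outside. Pfkm is the muscle phosphofructokinase, the committed step, and Aldoa is the aldolase of muscle and of many other cells. Pgam2 and Eno3 are the muscle phosphoglycerate mutase and the muscle (beta) enolase, and Pgam1 and Eno1 are the forms found in most cells. Ldha is the lactate dehydrogenase subunit of fast muscle and of growing cells, and Ldhb is the subunit of heart and slow muscle.

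Libraries held 25453830 to 52784510 counts in C2C12 cells and 32571583 to 51110723 in PMs, and levels are given as CPM, the read count relative to the library total, scaled by TMM factors over all 24 libraries. The lowest member count in any library was 23 for Pgam2 and 32 for Pygm, and every other member had at least 203 counts everywhere. Tead4 was lower in every siTead1/4 library than in every siControl library of the same cell type and day, for example 26.1 and 51.4 CPM against 111 and 147 CPM in C2C12 cells at day 3. The same held for Tead1 except in C2C12 cells at day 6, where 70.6 and 77.0 CPM stood against 76.0 and 136 CPM. The 2 libraries of a siTead1/4 group in C2C12 cells differed more than any other pair, with an SD of the log2 difference between them of 0.737, 0.732 and 0.629 at days 0, 3 and 6 against at most 0.570 in the other groups. Summed markers of myoblasts (Myod1, Myf5, Des, Cdh15, Chrna1 and Msc) ran from 745 to 10092 CPM over all libraries. Of these, Des stood at 413 to 4525 CPM in C2C12 cells and 1428 to 6931 CPM in PMs. Msc was at most 2.82 CPM in C2C12 cells and 4.06 CPM in PMs, and Myf5 was as low as 8.59 and 12.7 CPM. Macrophage markers summed to at most 2.42 CPM and adipocyte markers to at most 1.70 CPM. Plin1 was at 0 in every C2C12 library and at most 0.0978 CPM in PMs. Schwann cell markers reached 17.7 CPM and endothelial markers 26.1 CPM, both in PMs, with endothelial Pecam1 at most 4.11 CPM. Fibroblast markers, some of which myogenic cells also make, summed to 552 to 3872 CPM in PMs and 839 to 3658 CPM in C2C12 cells. Among them Thy1 stood at 11.9 to 84.0 CPM in PMs and at most 0.0472 CPM in C2C12 cells.

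At day 0 the order of the members already differed between the cell types. PM siControl cells then already carried markers of differentiated muscle, which summed to 10547 to 11564 CPM. In C2C12 siControl cells at day 0 the sum was 50.0 to 137 CPM. On the scale of CPM per kilobase of gene length, which allows genes to be compared, Ldha led in C2C12 siControl cells at day 0 with 558 ± 36.7, followed by Eno1 at 375 ± 19.8, Eno3 at 348 ± 66.1 and Aldoa at 343 ± 7.69. The libraries of Eno3 overlapped those of both Eno1 and Aldoa, whereas both Eno1 libraries lay above both Aldoa libraries. Pgam1 was at 127 ± 10.1, Pfkm and Hk2 at 16.9 ± 0.820 and 14.6 ± 5.60, Ldhb at 3.21 ± 0.613, and Pgam2 and Pygm came last at 1.12 ± 0.0278 and 1.04 ± 0.768. In PM siControl cells at day 0 Aldoa led with 707 ± 52.2 CPM per kilobase and Pgam2, at 133 ± 13.6, stood above Pgam1, at 79.5 ± 6.25. Here Ldha and Eno3, at 487 ± 55.6 and 453 ± 21.3, did not differ beyond their spread, and Hk2 was lowest at 5.51 ± 0.707. By day 3 Eno3 ranked first in C2C12 siControl cells, at 765 ± 0.506 CPM per kilobase, ahead of Aldoa, at 543 ± 17.4. In PMs at day 3 Aldoa, at 2837 ± 566, was ahead of Eno3, at 1887 ± 94.9, while Pgam2, Pygm and Ldha, between 926 ± 175 and 785 ± 117, overlapped. These orders depend on the division by gene length. In CPM, Eno3 stood at 587 ± 112 in C2C12 siControl cells at day 0, below Aldoa at 774 ± 17.3. In PM siControl cells at day 0 Pgam2 stood at 111 ± 11.5 CPM, below Pgam1 at 146 ± 11.4 CPM. All errors in this paragraph are SDs over 2 libraries.

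**Figure D1:**
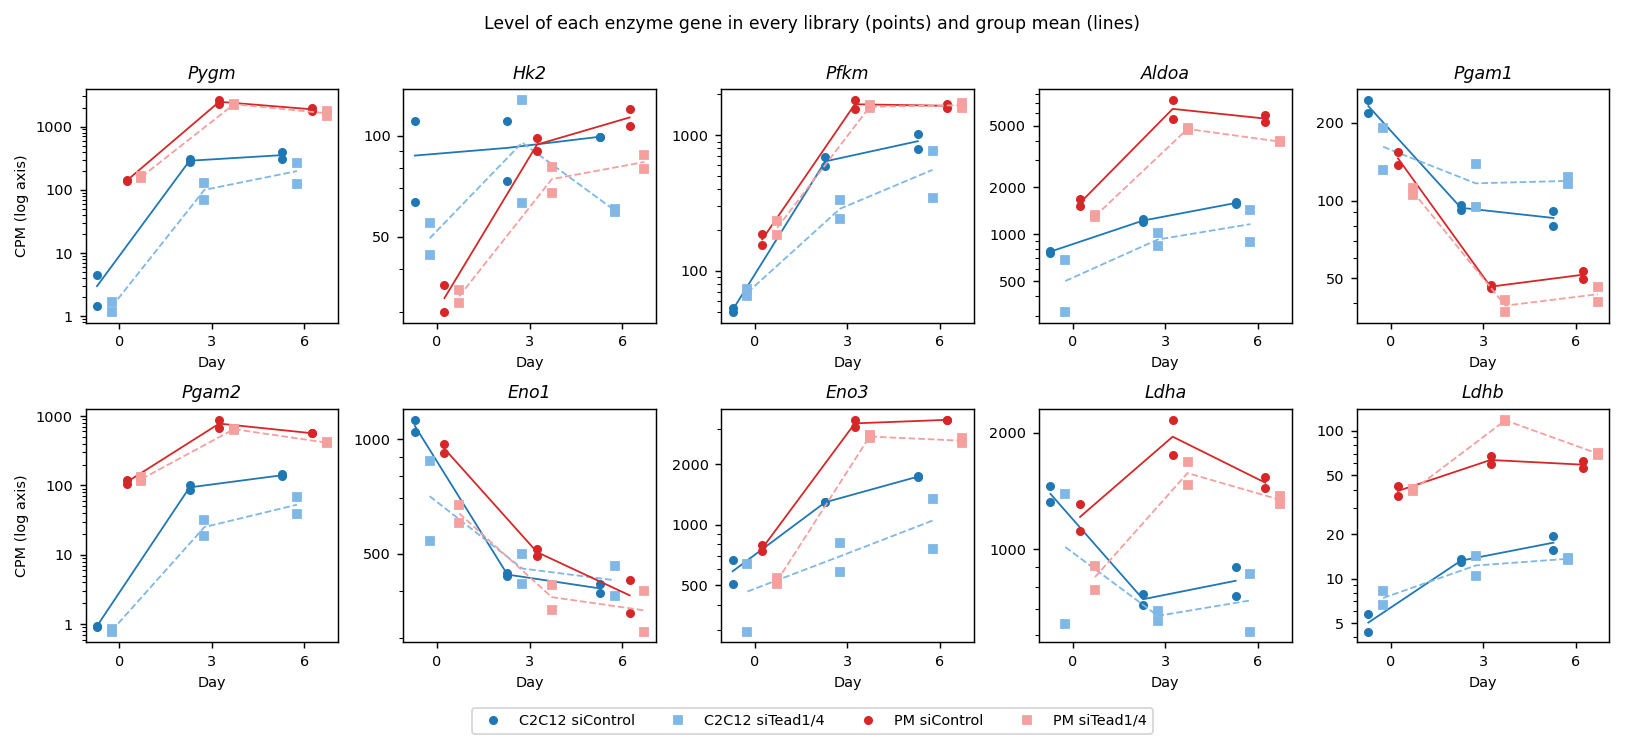
Level of each of the 10 genes in every library, in CPM on a log axis, against the day of differentiation. Circles are siControl and squares siTead1/4 libraries, blue C2C12 and red PM, and lines join group means of 2 libraries. Pygm, Pgam2 and Pfkm climbed from day 0 to day 3 in all 4 series, Pgam1 and Eno1 were lower at days 3 and 6 than at day 0 in siControl cells of both types, and the 2 pale blue squares of a group often lie far apart.

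C2C12 siControl cells gained the muscle isoforms, and the ubiquitous mutase and enolase fell, between day 0 and day 3. A gene was called when its adjusted p (edgeR's quasi-likelihood test, Benjamini-Hochberg over all tested genes) was under 0.05 and its log2 fold change was beyond 1 in size. Of the 10 members 7 were called, 5 higher and 2 lower, where 28.7% of 15303 tested genes were called, 16.0% higher and 12.7% lower. The members' median log2 fold change was 0.86 beside -0.014 over all tested genes.

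Pgam2 stood at 0.957 and 0.924 CPM at day 0, 85.2 and 102 CPM at day 3 and 136 and 145 CPM at day 6. From barely detected it rose 96.8-fold by day 3 (log2 6.60 ± 0.38 SE, adjusted p = 3.3e-06). Pygm was at 4.56 and 1.44 CPM at day 0, where its 2 libraries differed more than those of any other member, and at 272 and 306 CPM at day 3 and 305 and 403 CPM at day 6. It rose 95.0-fold (log2 6.57 ± 0.64 SE, adjusted p = 4.2e-05). Pfkm rose from 53.3 and 49.7 CPM to 598 and 687 CPM and 792 and 1018 CPM at days 3 and 6, 12.1-fold by day 3 (log2 3.60 ± 0.37 SE, adjusted p = 5.6e-05). For these 3 genes no day 0 library came near a day 3 library.

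Eno3, the muscle enolase, was already abundant in C2C12 myoblasts before differentiation. It was at 666 and 508 CPM at day 0, 1292 and 1293 CPM at day 3 and 1749.6 and 1717 CPM at day 6, and its rise at day 3 was 2.14-fold (log2 1.10 ± 0.38 SE, adjusted p = 0.0434). That call was lost when any 1 of the 4 libraries was left out, with log2 values from 0.92 to 1.31 and adjusted p up to 0.210. At day 6 the rise was 2.87-fold (log2 1.52 ± 0.39 SE, adjusted p = 0.00995) and was lost without siControl day 0 replicate 2 (1.35, adjusted p = 0.0786). Ldhb, low in these cells, rose from 5.71 and 4.35 CPM to 13.4 and 13.0 CPM at day 3 (log2 1.35 ± 0.24 SE, adjusted p = 0.0018).

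The ubiquitous forms went the other way. Eno1 fell from 1125 and 1044 CPM at day 0 to 444 and 438 CPM at day 3 and 395 and 416 CPM at day 6 (day 3 log2 -1.34 ± 0.25 SE, adjusted p = 0.00221). Pgam1 fell from 219 and 245 CPM to 96.0 and 91.5 CPM and 79.8 and 91.4 CPM (day 3 log2 -1.35 ± 0.24 SE, adjusted p = 0.0017). Both stood lower in each day 3 and day 6 library than in each day 0 library. Ldha went from 1326 and 1455 CPM to 719 and 768 CPM, a log2 difference of -0.94 ± 0.33 (SE, adjusted p = 0.0449) that passed the p threshold but not the minimum fold. Aldoa had a day 3 log2 fold change of 0.62 ± 0.34 (SE, adjusted p = 0.177) and a day 6 value of 0.999 ± 0.35 (SE, adjusted p = 0.0396) that fell just under the minimum fold. Hk2 gave 0.04 ± 0.35 (SE, adjusted p = 0.946) at day 3, and its day 0 libraries, at 111 and 63.6 CPM, were among the most discordant. At day 6 against day 0, a comparison that shares the day 0 libraries with the one above, 7 members were again called, where 31.1% of all tested genes were, 17.1% higher and 14.0% lower. Between days 3 and 6 edgeR called 0 of the 10 members, DESeq2 also called 0, 0 had an unadjusted p under 0.05 beside 2.65% of all tested genes, and 0% of all tested genes was called.

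A near-identical copy touches 1 of these genes. Gm5506, whose coding sequence in the GENCODE vM1 transcripts was 99.4% identical to that of Eno1, with an identical run of 725 of 1305 bases, had 1514 to 7717 counts in C2C12 libraries and 0 or 1 in PM libraries. It fell with Eno1 in C2C12 siControl cells (day 3 log2 fold change -1.46, SE 0.28, adjusted p = 0.00249), so the level of Eno1 in C2C12 cells is uncertain. Summing Eno1 with its copies, and Aldoa, Ldha and Pgam1 with theirs, a choice made after seeing the data, left every count of members called as it was. Eno1 and Eno3 shared 77.8% of aligned coding bases, Pgam1 and Pgam2 76.5%, and Ldha and Ldhb 73.4%, with no identical run over 28 bases in these pairs.

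PM siControl cells made the same muscle isoforms from a much higher start. Of the 10 members 7 were called at day 3 against day 0, 6 higher and 1 lower, where 32.3% of 16144 tested genes were called, 17.5% higher and 14.9% lower. The members' median log2 fold change was 1.71 beside 0.015 over all tested genes.

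Pygm was at 141 and 137 CPM at day 0, 2638 and 2300.2 CPM at day 3 and 1986 and 1772 CPM at day 6. Its rise of 17.1-fold at day 3 (log2 4.09 ± 0.14 SE, adjusted p = 4.0e-08) was the largest among the members in PMs. Pgam2 went from 119.5 and 103 CPM to 882 and 674 CPM and then to 562 and 569.6 CPM, and rose 6.72-fold by day 3 (log2 2.75 ± 0.14 SE, adjusted p = 2.6e-07). Pfkm went from 186 and 156 CPM to 1823 and 1565 CPM and 1591 and 1709.7 CPM, and rose 9.55-fold (log2 3.26 ± 0.16 SE, adjusted p = 1.8e-07). In all 3 genes both day 3 libraries lay far above both day 0 libraries.

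Aldoa was the most abundant member in PMs, with 1677 and 1510.3 CPM at day 0, 7300.1 and 5495 CPM at day 3 and 5840.2 and 5243 CPM at day 6. It rose 3.86-fold at day 3 (log2 1.95 ± 0.15 SE, adjusted p = 1.8e-06). Eno3 rose 4.01-fold, from 789.9 and 739 CPM to 3301 and 3075 CPM (log2 2.00 ± 0.11 SE, adjusted p = 2.7e-07), and kept that level at day 6 with 3319 and 3318 CPM. Hk2 rose from 35.9 and 29.9 CPM to 89.8 and 98.4 CPM and 120.0 and 107 CPM (day 3 log2 1.46 ± 0.13 SE, adjusted p = 5.9e-06), unlike in C2C12 cells, where it was not called.

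Among the ubiquitous forms Pgam1 fell from 154 and 137 CPM to 45.7 and 47.2 CPM at day 3 (log2 -1.70 ± 0.11 SE, adjusted p = 6.7e-07). Eno1 went from 970.5 and 919 CPM to 515 and 495 CPM at day 3 and 350.1 and 428 CPM at day 6. Its day 3 log2 value of -0.96 ± 0.15 (SE, adjusted p = 2.5e-04) fell short of the minimum fold, and by day 6 it had fallen 2.54-fold (log2 -1.35 ± 0.15 SE, adjusted p = 2.1e-05). Ldha and Ldhb had log2 values of 0.63 ± 0.14 (SE, adjusted p = 0.00298) and 0.64 ± 0.11 (SE, adjusted p = 4.4e-04), under the minimum fold. At day 6 against the same day 0 libraries 8 members were called, 6 higher and 2 lower, where 35.5% of all tested genes were, 20.2% higher and 15.3% lower. Between days 3 and 6 edgeR called 0 members, DESeq2 0, 4 had an unadjusted p under 0.05 beside 22.0% of all tested genes, and 2.80% of all tested genes were called, 2.22% higher and 0.582% lower. Markers of differentiated muscle summed to 10547 to 11564 CPM in PM siControl cells at day 0 and 46422 to 50239 CPM at day 3, against 50.0 to 137 CPM and 22092 to 24238 CPM in C2C12 siControl cells, while proliferation markers in PM siControl cells summed to 1548 to 1645 CPM at day 0 and 131 to 162 CPM at day 3. In bulk RNA, fewer cells of a type and less RNA per cell cannot be told apart.

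The change from day 0 to day 3 in siControl cells differed between PMs and C2C12 cells for 5 of the 10 members in a direct test of the difference over all 24 libraries, where 11.2% of 16926 tested genes were called, 3.79% higher and 7.44% lower in PMs. Pgam2 and Pygm rose less in PMs, with PM minus C2C12 differences of -3.83 ± 0.37 (SE, adjusted p = 2.5e-06) and -2.47 ± 0.58 (SE, adjusted p = 0.0076) on the log2 scale. Both stood higher in PMs at day 0 and at day 3. Ldha differed by 1.59 ± 0.37 (SE, adjusted p = 0.00751), with a positive log2 change in PMs and a negative one in C2C12 cells. Hk2 and Aldoa differed by 1.44 ± 0.40 (SE, adjusted p = 0.0227) and 1.34 ± 0.39 (SE, adjusted p = 0.0288), but with 1 library left out Hk2 was called in 3 of 8 fits (log2 0.98 to 1.80) and Aldoa in 1 of 8 (1.12 to 1.55). Adjusted p reached 0.156 for Hk2 without C2C12 siControl day 0 replicate 1 and 0.145 for Aldoa without PM siControl day 3 replicate 1. The interaction for Eno3, 0.92 ± 0.41 (SE, adjusted p = 0.163), and for Pfkm, -0.33 ± 0.38 (SE, adjusted p = 0.657), was not called.

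**Figure D2:**
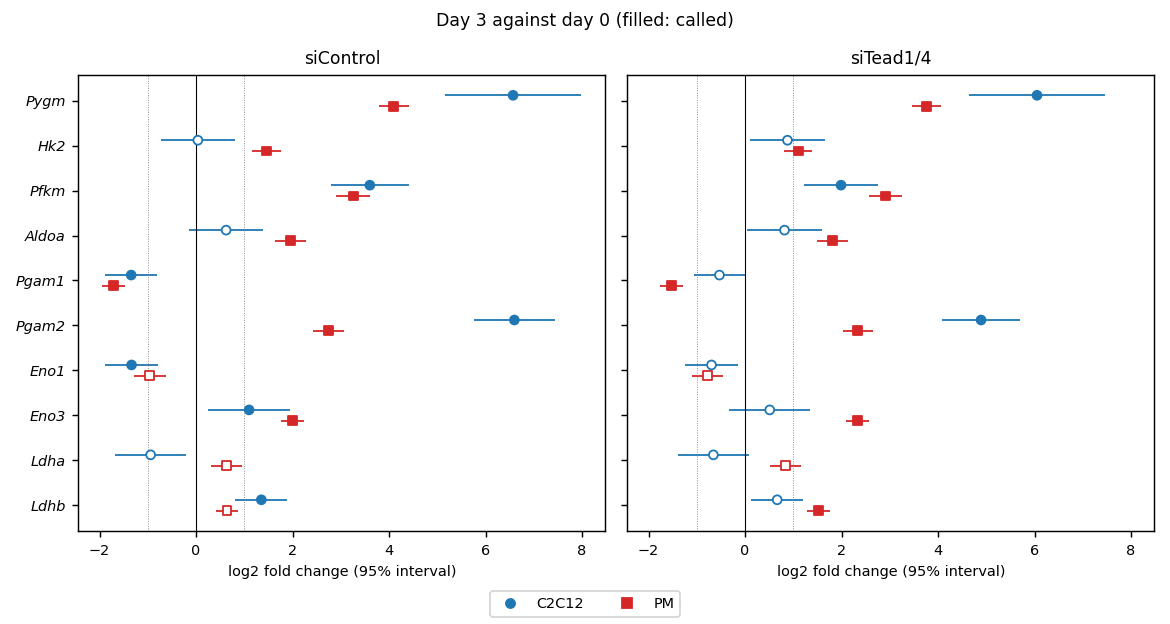
Log2 fold change of each gene at day 3 against day 0 with its 95% interval, in siControl cells (left) and siTead1/4 cells (right), C2C12 in blue and PM in red. Filled symbols passed both thresholds and dotted lines mark a log2 fold change of 1 in either direction. Pgam2 and Pygm sit farther right in C2C12 cells than in PMs, and Pgam2 in C2C12 cells is at 6.60 in siControl and 4.89 in siTead1/4 cells.

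The promoters of 3 muscle forms that rose in both cell types and of the ubiquitous mutase that fell in both are shown because they differ in base composition and in the motifs of muscle factors. Each is the RefSeq window of 280 bases (GRCm38.p6) from 250 bases before the start through the first 30 bases from the start on, read 5′ to 3′ on the gene's strand. Capitals mark matches, on either strand, to the MCAT motif bound by Tead factors (CATTCC, or GGAATG read from the other strand), to the E-boxes CAGCTG and CAGGTG bound by myogenic bHLH factors, and to the MEF2 motif. Pgam2 lies at chr11:5803767-5804046 on the minus strand, Eno3 at chr11:70656926-70657205, Pygm at chr19:6384158-6384437 and Pgam1 at chr19:41911621-41911900, these 3 on the plus strand.
Pgam2: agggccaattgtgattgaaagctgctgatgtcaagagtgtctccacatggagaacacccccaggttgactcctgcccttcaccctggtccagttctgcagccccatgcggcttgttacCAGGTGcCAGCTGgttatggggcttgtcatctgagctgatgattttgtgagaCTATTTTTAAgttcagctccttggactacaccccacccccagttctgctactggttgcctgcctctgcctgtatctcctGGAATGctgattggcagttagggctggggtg
Eno3: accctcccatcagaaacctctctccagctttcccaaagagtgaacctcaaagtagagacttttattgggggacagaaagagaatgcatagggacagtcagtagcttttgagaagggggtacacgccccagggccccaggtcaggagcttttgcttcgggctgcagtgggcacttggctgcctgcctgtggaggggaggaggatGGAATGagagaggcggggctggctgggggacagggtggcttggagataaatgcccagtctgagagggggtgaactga
Pygm: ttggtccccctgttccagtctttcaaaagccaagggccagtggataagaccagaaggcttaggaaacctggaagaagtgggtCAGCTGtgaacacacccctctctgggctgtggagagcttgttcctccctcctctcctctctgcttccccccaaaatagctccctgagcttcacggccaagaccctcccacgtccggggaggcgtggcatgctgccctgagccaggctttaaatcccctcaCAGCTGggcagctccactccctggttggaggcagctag
Pgam1: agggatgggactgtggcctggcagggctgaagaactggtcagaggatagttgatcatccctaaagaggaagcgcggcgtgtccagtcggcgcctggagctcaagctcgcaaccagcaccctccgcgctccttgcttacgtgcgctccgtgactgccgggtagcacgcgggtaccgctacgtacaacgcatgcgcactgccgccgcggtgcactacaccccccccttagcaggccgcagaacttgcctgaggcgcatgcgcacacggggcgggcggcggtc

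The Pgam2 window held an MCAT match 1 base before the start, a CAGGTG 132 and a CAGCTG 125 bases before it and a MEF2 match 80 bases before it. Eno3 held an MCAT match 47 bases before the start, and Pygm held CAGCTG matches 168 and 8 bases before it. Pgam1 held none of these 4 motifs. The hypoxia-response core ACGTG, which the capitals do not mark, lay 114 bases before the Pgam1 start and 61 before the Pygm start. It also lay in the Hk2 window and in Pfkm and Aldoa windows. In the first of 2 Ldha windows it matched 145, 144, 48, 47 and 34 bases before the start. Matches 1 base apart there are 1 site read on both strands. CpG pairs numbered 1 in the Pgam2 window, 3 in Eno3, 4 in Pygm and 28 in Pgam1, beside a median of 6 over 32851 promoters. Windows of the same length held an MCAT match in 13.9%, CAGCTG in 14.9%, CAGGTG in 19.1%, MEF2 in 3.07% and ACGTG in 18.5% of those promoters. An MCAT match also lay in 1 of the 3 Aldoa windows and, as a single site, in both of 2 overlapping Eno1 windows. The Aldoa match was followed by G, where the study's motif has A or T, and the 13.9% likewise counts CATTCC whatever follows. Pfkm, which also rose in both cell types, held no MCAT or MEF2 match in its windows. CAGGTG lay in Pfkm and Ldha windows and CAGCTG in an Aldoa window. A match describes the letters of the window and nothing about binding there. In the mm9 coordinates of the deposited gene models, Pgam2 spans chromosome 11 bases 5701643 to 5703736, Eno3 chromosome 11 bases 70470704 to 70476015, Pygm chromosome 19 bases 6384399 to 6398459 and Pgam1 chromosome 19 bases 41986361 to 41993154.

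Over differentiation the balance moved to the muscle form in the mutase, enolase, phosphofructokinase and phosphorylase families. Shares were taken per library from CPM per kilobase within a family and carry no test. Pgam2 made up 0.944 and 0.816% of Pgam1 plus Pgam2 in the 2 C2C12 siControl libraries at day 0. It made up 65.9 and 70.9% at day 3, and by day 6 78.8 and 77.5%. With siTead1/4 the shares were 1.27 and 0.949%, 22.7 and 42.1% and 41.9 and 54.5%, so that at days 3 and 6 both silenced libraries lay below both controls and differed widely from each other. In PM siControl cells Pgam2 already held 62.9 and 62.1% at day 0 and 97.7 and 96.9% at day 3, and in PM siTead1/4 cells 73.2 and 69.3% and 97.5 and 97.1%. The silenced PMs were thus above the controls at day 0 and overlapped them at day 3. These shares depend on the division by gene length: from counts alone the mean share of Pgam2 was 43.3% in place of 62.5% in PM siControl cells at day 0, so that Pgam1 was then the larger part. In C2C12 siTead1/4 cells it was 18.4% in place of 32.4% at day 3 and 30.1% in place of 48.2% at day 6.

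Eno3 held 49.9 and 45.3% of the enolases Eno1, Eno2 and Eno3 in C2C12 siControl myoblasts, 82.7 and 82.8% at day 3 and 87.6 and 87.1% at day 6. In C2C12 siTead1/4 cells it held 47.9 and 55.2%, 65.0 and 75.4% and 75.9 and 82.6%, lower than siControl at days 3 and 6. PMs went from 58.2 and 57.9% to 91.6 and 91.3% in siControl and from 58.8 and 58.0% to 92.8 and 92.0% in siTead1/4 cells. At day 0 Eno3 thus held between 45.3% and 58.8% of the enolases in all libraries of both cell types, whereas Pgam2 held at most 1.27% of the mutases in C2C12 cells. From counts alone, without division by gene length, Eno3 held 32.6% to 45.5% at day 0, a minority in every library. The copy Gm5506 is not part of these sums.

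Pfkm went from 17.5 and 16.2% of the 3 phosphofructokinases in C2C12 siControl cells at day 0 to 78.4 and 79.8% at day 3. In C2C12 siTead1/4 cells the values were 30.9 and 23.2% and 56.0 and 68.6%, above the controls at day 0 and below them at day 3. In PMs Pfkm held 51.1 and 52.5% in siControl and 67.5 and 64.3% in siTead1/4 cells at day 0, and 94.9% to 96.9% in all libraries at days 3 and 6. From counts alone its mean share in PM siControl cells at day 0 was 44.6% in place of 51.8%. Pygm, beside the brain and liver phosphorylases Pygb and Pygl, held 8.79 and 2.84% in C2C12 siControl cells at day 0 and 89.6 and 89.9% at day 3, and 61.1 and 83.1% in siTead1/4 cells at day 3. In PMs at day 0 it held 79.4 and 80.2% in siControl and 82.9 and 83.1% in siTead1/4 cells. Later it held 98.8% to 99.2% in PMs with either siRNA.

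Ldhb was a small part of lactate dehydrogenase everywhere, from 0.472% to 3.91% in C2C12 cells and from 4.69% to 11.2% in PMs. From counts alone its mean share in PM siControl cells at day 0 was 3.12% in place of 4.87%. In PMs both siTead1/4 libraries lay above both siControl libraries at each day, which carries little with 2 libraries a group. At day 0 the shares were 7.49 and 6.35% against 4.84 and 4.89%. Ldhb itself then had a mean of 39.5 CPM against 39.1 CPM, while Ldha had 848 CPM against 1214 CPM. The shares were 10.0 and 11.2% against 4.69 and 5.14% at day 3 and 7.60 and 7.67% against 6.01 and 5.81% at day 6. Hk2 beside Hk1 showed no common course: its share in C2C12 siControl cells was 38.5 and 25.3% at day 0 and 32.9 and 40.3% at day 3, and in PM siControl cells 19.9 and 17.5% and 39.5 and 40.5%.

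**Figure D3:**
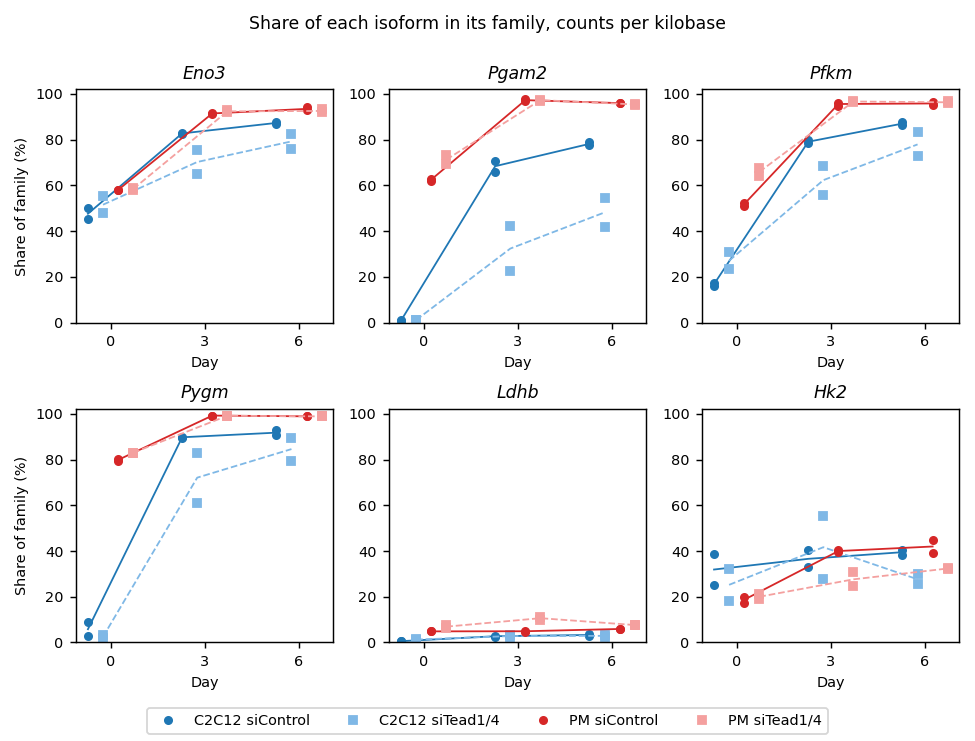
Share of 6 isoforms in their families, in percent of CPM per kilobase, against the day, with 1 point per library and lines through group means. Families are Eno1, Eno2 and Eno3, Pgam1 and Pgam2, the phosphofructokinases Pfkm, Pfkl and Pfkp, the phosphorylases Pygm, Pygb and Pygl, Ldha and Ldhb, and Hk1 and Hk2. The dark and pale blue lines separate at days 3 and 6 for Pgam2, Eno3, Pfkm and Pygm, whereas the red lines of these isoforms run close together at those days. The pale red line for Ldhb peaks at day 3, with libraries at 10.0 and 11.2%.

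Comparing the cell types directly in siControl cells, PMs had more Pgam2 and Pygm at every day, and these comparisons carry the differences of strain, medium and matrix. At day 0, 6 of 10 members were called, 5 higher and 1 lower in PMs, where 26.8% of 16926 tested genes were, 16.3% higher and 10.5% lower. Pgam2 was 118-fold higher (log2 6.89 ± 0.32 SE, adjusted p = 1.2e-10) and Pygm 47.5-fold higher (log2 5.57 ± 0.48 SE, adjusted p = 1.0e-07). Ldhb was 7.80-fold higher in PMs (42.1 and 36.1 CPM against 5.71 and 4.35 CPM, log2 2.96 ± 0.18 SE, adjusted p = 2.1e-09) and Pfkm 3.32-fold (log2 1.73 ± 0.28 SE, adjusted p = 9.5e-05). Eno3 and Eno1 were not called, with log2 values of 0.38 ± 0.29 (SE, adjusted p = 0.324) and -0.20 ± 0.20 (SE, adjusted p = 0.456). Hk2 was lower in PMs (log2 -1.41 ± 0.29 SE, adjusted p = 8.5e-04), a call lost without C2C12 siControl day 0 replicate 1 (log2 -0.97, adjusted p = 0.0235). Aldoa was higher (log2 1.04 ± 0.28 SE, adjusted p = 0.00623), a call lost without PM siControl day 0 replicate 1 (0.94, adjusted p = 0.0511) or C2C12 siControl day 0 replicate 2 (0.99, adjusted p = 0.0530).

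At day 3, 8 members were called, 7 higher and 1 lower in PMs, where 29.8% of all tested genes were, 17.2% higher and 12.6% lower. Pgam2 and Pygm were still 8.30-fold and 8.55-fold higher, and Aldoa, at 7300.1 and 5495 CPM against 1197 and 1253 CPM, was 5.22-fold higher (log2 2.39 ± 0.29 SE, adjusted p = 5.6e-06). Pgam1 was the member that was lower (log2 -1.01 ± 0.18 SE, adjusted p = 2.5e-04), and it was not called with RLE size factors or DESeq2, where it came under the minimum fold. At day 6, 4 members were called, all higher in PMs (Pygm, Pgam2, Aldoa and Ldhb), where 24.9% of all tested genes were, 15.7% higher and 9.22% lower.

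The question of the siRNA series is how much of this depends on Tead1 and Tead4. In C2C12 cells Pgam2 was the member called, at day 3, and it fell. Of the 10 members 1 was called at day 3, where 1.27% of 15303 tested genes were called, 1.08% lower and 0.190% higher. The members' median log2 fold change was -0.30 beside 0.0064 over all tested genes. Pgam2 stood at 18.6 and 31.6 CPM in the siTead1/4 libraries against 85.2 and 102 CPM in siControl, 3.81-fold lower (log2 -1.93 ± 0.30 SE, adjusted p = 0.0189). Both silenced libraries lay below both controls. The call was lost without siControl day 3 replicate 1 (log2 -2.07, adjusted p = 0.0766), without siControl day 3 replicate 2 (-1.79, adjusted p = 0.136) or without siTead1/4 day 3 replicate 2 (-2.34, adjusted p = 0.0518).

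The other muscle forms leaned the same way without passing the test. Pygm was at 69.1 and 131 CPM against 272 and 306 CPM (log2 -1.56 ± 0.51 SE, adjusted p = 0.177) and Pfkm at 241 and 334 CPM against 598 and 687 CPM (log2 -1.19 ± 0.34 SE, adjusted p = 0.128). Neither pair of groups overlapped, which carries little with 2 libraries a group, and the share over all genes was not counted. DESeq2, the fit of all 24 libraries and the fit with no filter on low counts each called both genes together with Pgam2, 3 members in all. Eno3 was at 580.3 and 814 CPM against 1292 and 1293 CPM (log2 -0.92 ± 0.38 SE, adjusted p = 0.304). Of the ubiquitous forms, Eno1 at 498 and 417 CPM and Pgam1 at 138 and 94.7 CPM overlapped their controls, with log2 values of 0.03 ± 0.25 (SE, adjusted p = 0.98) and 0.29 ± 0.24 (SE, adjusted p = 0.667). Aldoa, Ldha and Ldhb had log2 values between -0.43 and -0.14, and Hk2 of 0.02 with libraries at 63.1 and 128 CPM.

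Differentiated muscle markers moved with these values: their sum was 7661 to 11088 CPM in C2C12 siTead1/4 cells at day 3 against 22092 to 24238 CPM in siControl, and 11268 to 19756 CPM against 23170 to 25716 CPM at day 6. Of those 10 markers 1 was called lower at day 3, with a median log2 fold change of -1.09. The 12 listed hypoxia-responsive genes summed to 1536 to 1997 CPM in C2C12 siTead1/4 cells at day 3 against 1004 to 1014 CPM in siControl, with a median log2 fold change of 0.64 and 0 of 12 called. The part of either in the values of the members was not tested.

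At day 6 in C2C12 cells edgeR called 0 of 10 members, where 0.0457% of all tested genes were called (0.0131% higher, 0.0327% lower), 1 had an unadjusted p under 0.05 beside 6.95% of all tested genes, and DESeq2 called 1. Pgam2 was at 38.1 and 67.4 CPM against 136 and 145 CPM (log2 -1.41 ± 0.29 SE, adjusted p = 0.149), and it was the gene DESeq2 called. Pygm at 125 and 270.4 CPM, Pfkm at 344 and 768 CPM and Eno3 at 757 and 1340.2 CPM had log2 values of -0.83, -0.70 and -0.72. Replicate 1 was the lower library in each of these genes. At day 0 edgeR called 0 members, where 0.438% of all tested genes were called (0.137% higher, 0.301% lower), 3 had an unadjusted p under 0.05 (Hk2, Eno1 and Ldhb) beside 10.5% of all tested genes, and DESeq2 called 0. Eno1 was at 540.3 and 877 CPM against 1125 and 1044 CPM (log2 -0.61 ± 0.25 SE, adjusted p = 0.404) and Ldha at 642 and 1387 CPM against 1326 and 1455 CPM (log2 -0.45 ± 0.33 SE, adjusted p = 0.721). The 2 silenced libraries differed by more than 2-fold for Ldha, Aldoa and Eno3 at day 0.

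**Figure D4:**
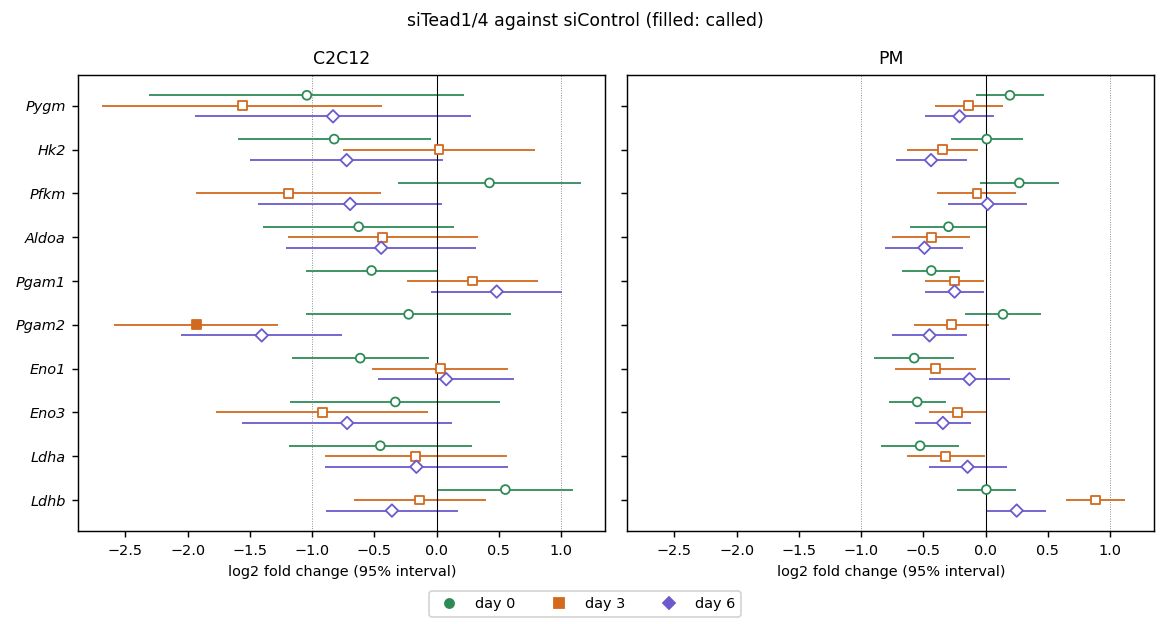
Log2 fold change of each gene in siTead1/4 against siControl cells with its 95% interval, at days 0, 3 and 6 in C2C12 cells (left) and PMs (right). The filled square for Pgam2 in C2C12 cells at day 3, at -1.93, is the value that passed both thresholds, and the intervals in C2C12 cells are wider than those in PMs.

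In PMs no member passed both thresholds at any day. At day 0 edgeR called 0 of 10, where 2.60% of 16144 tested genes were called, 1.50% higher and 1.10% lower, while 4 members had an unadjusted p under 0.05 beside 23.3% of all tested genes, and DESeq2 called 0. The same 4 had an adjusted p under 0.05, as did 7.72% of all tested genes, with log2 differences short of 1 that were all negative. Eno3 was at 505 and 546 CPM against 789.9 and 739 CPM (log2 -0.55 ± 0.10 SE, adjusted p = 0.0116) and Eno1 at 603 and 674 CPM against 970.5 and 919 CPM (log2 -0.57 ± 0.15 SE, adjusted p = 0.0405). Pgam1 and Ldha had log2 values of -0.44 ± 0.11 (SE, adjusted p = 0.033) and -0.53 ± 0.14 (SE, adjusted p = 0.0491). These 4 genes include both enolases. Pgam2 and Pygm had log2 values of 0.14 ± 0.14 (SE, adjusted p = 0.595) and 0.19 ± 0.12 (SE, adjusted p = 0.385). Other marker lists moved in the same libraries. Proliferation markers summed to 1156 to 1168 CPM in siTead1/4 against 1548 to 1645 CPM in siControl cells (median log2 fold change -0.48, 0 of 6 called), and the hypoxia-responsive genes to 379 to 423 CPM against 464 to 607 CPM (0 of 12 called). Fibroblast markers summed to 809 to 868 CPM against 552 to 565 CPM (0 of 6 called), and those of differentiated muscle to 8773 to 10858 CPM against 10547 to 11564 CPM (1 of 10 called, lower). Endothelial markers, at 12.0 to 23.3 CPM against 7.10 to 13.0 CPM, had 1 of 5 called, higher. The part of these lists in the fall of the 4 members was not tested.

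At day 3 edgeR called 0 members, where 3.30% of all tested genes were called, 2.10% higher and 1.20% lower, 6 had an unadjusted p under 0.05 beside 22.7% of all tested genes, and DESeq2 called 0. Ldhb had an adjusted p under 0.05, as did 7.33% of all tested genes, at 118 and 117 CPM in siTead1/4 against 67.0 and 59.7 CPM in siControl cells, 1.84-fold more (log2 0.88 ± 0.11 SE, adjusted p = 0.00137). Its log2 value stayed under the minimum fold with 1 library left out, from 0.80 to 0.97. Pgam2 was at 659 and 636 CPM against 882 and 674 CPM (log2 -0.27 ± 0.14 SE, adjusted p = 0.266), with a 95% interval from -0.57 to 0.03 that does not reach the C2C12 value. Pfkm and Pygm had log2 values of -0.07 ± 0.14 (SE, adjusted p = 0.829) and -0.14 ± 0.12 (SE, adjusted p = 0.582). At day 6 edgeR called 0 members, where 0.743% of all tested genes were called (0.465% higher, 0.279% lower), 6 had an unadjusted p under 0.05 beside 11.9% of all tested genes, and DESeq2 called 0. Aldoa, at 3909 and 3966 CPM against 5840.2 and 5243 CPM, had a log2 value of -0.49 ± 0.14 (SE, adjusted p = 0.154). Differentiated muscle markers in PMs summed to 42834 to 45514 CPM in siTead1/4 and 46422 to 50239 CPM in siControl cells at day 3, with 0 of 10 called.

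The direct test of the difference in silencing effect between PMs and C2C12 cells called 1 member at day 3, Pgam2, where 1.25% of 16926 tested genes were called, 1.02% higher and 0.236% lower in PMs. The Pgam2 effect was -1.93 in C2C12 cells and -0.27 in PMs, a difference of 1.63 ± 0.34 (SE, adjusted p = 0.0239). It was called in 2 of 8 fits with 1 library left out, with differences from 1.29 to 2.08, and lost without either siControl library of C2C12 cells at day 3 or any of the 4 PM libraries of that day, with adjusted p from 0.0503 to 0.127. Ldhb differed by 0.998 ± 0.24 (SE, adjusted p = 0.0515), just short of both thresholds. At day 0, 0 members and 0.00591% of all tested genes were called, and at day 6, 0 members and 0.0354%. The unadjusted p was under 0.05 for 1 and 3 members, beside 4.28% and 5.41% of all tested genes, and DESeq2 called 0 and 0.

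Silenced cells still made muscle isoforms over time. In C2C12 siTead1/4 cells 3 members rose at day 3 against day 0, Pygm (log2 6.05 ± 0.64 SE, adjusted p = 1.1e-04), Pgam2 (4.89 ± 0.36 SE, adjusted p = 2.0e-05) and Pfkm (1.99 ± 0.34 SE, adjusted p = 0.00178), where 24.6% of all tested genes were called, 13.8% higher and 10.8% lower. Eno1 and Pgam1, which fell in siControl cells, had log2 values of -0.70 ± 0.25 (SE, adjusted p = 0.0515) and -0.53 ± 0.24 (SE, adjusted p = 0.107). Whether these differ from siControl was not tested as an interaction. The count depended on single libraries. Without siTead1/4 day 0 replicate 1, Eno1 (-1.01, adjusted p = 0.00704) and Ldha (-1.11, adjusted p = 0.00966) were also called, and without replicate 2, Aldoa (1.51, adjusted p = 0.00840) and Eno3 (1.20, adjusted p = 0.0439) were. Without siTead1/4 day 3 replicate 1, Hk2 was (1.33, adjusted p = 0.0167). At day 6, 5 members were called, all higher, with Aldoa and Eno3 added, where 25.1% of all tested genes were, 14.4% higher and 10.7% lower. The calls for Aldoa and Eno3 were lost without siTead1/4 day 0 replicate 1 (0.72 and 0.68, adjusted p = 0.0842 and 0.175) or siTead1/4 day 6 replicate 2 (0.81 and 0.67, adjusted p = 0.157 and 0.275).

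In PM siTead1/4 cells 8 members were called at day 3, 7 higher and 1 lower, where 28.3% of all tested genes were, 15.9% higher and 12.4% lower. The eighth beside those called in siControl cells was Ldhb, from 40.2 and 38.8 CPM to 118 and 117 CPM (log2 1.52 ± 0.11 SE, adjusted p = 1.6e-06). At day 6, 7 were called, 6 higher and 1 lower, where 31.9% of all tested genes were, 18.2% higher and 13.7% lower, and Ldhb stood at 71.2 and 68.7 CPM. The rise of Hk2 at day 3 (log2 1.10 ± 0.13 SE, adjusted p = 4.8e-05) was lost without siTead1/4 day 3 replicate 1 (0.96, adjusted p = 5.8e-04), where it came under the minimum fold.

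The rest of the pathway was followed through 66 other genes, of which 63 were in the table. In C2C12 siControl cells at day 3 against day 0, 15 of 53 tested rose and 11 fell, and in PM siControl cells 28 of 55 rose and 8 fell, beside the shares over all genes given above. Genes of glycogen metabolism made up most of the rises, with 11 of 21 higher in C2C12 cells and 17 of 23 in PMs. Pgm5, a phosphoglucomutase relative of muscle adhesion sites, had the largest rise in C2C12 cells, from 0.355 ± 0.175 CPM to 239 ± 40.2 CPM (SD, n = 2, log2 9.42, SE 0.52, adjusted p = 2.8e-06). In PMs it was Fbp2, the muscle fructose bisphosphatase, from 0.0424 ± 0.0599 CPM to 7.77 ± 3.98 CPM (SD, n = 2), a rise from at most 4 counts in a library. The largest falls were of Pfkfb1, which makes and removes an activator of phosphofructokinase, in C2C12 cells (log2 -2.21, SE 0.28, adjusted p = 2.4e-04) and of the lactate transporter Slc16a1 in PMs (log2 -1.48, SE 0.12, adjusted p = 3.0e-06). Among the other core glycolysis genes 0 of 14 rose and 3 fell in C2C12 cells, and 4 rose and 2 fell in PMs.

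Silencing called 0 of 53 pathway genes in C2C12 cells at any day, where 0.438%, 1.27% and 0.0457% of all tested genes were called at days 0, 3 and 6. In PMs it called 2 of 55 at day 0, both lower, beside 2.60% of all tested genes, 1 at day 3, also lower, beside 3.30%, and 0 at day 6, beside 0.743%. Slc16a3, the lactate exporter of glycolytic cells, went from 25.7 ± 10.8 CPM to 6.92 ± 0.818 CPM at day 0 (SD, n = 2, log2 -1.91, SE 0.27, adjusted p = 0.00372). Pdk1, a kinase that shuts off pyruvate dehydrogenase, was the other gene at day 0 (log2 -1.67, SE 0.22, adjusted p = 0.00220) and the gene called at day 3, from 51.1 ± 6.16 CPM to 22.7 ± 3.27 CPM (SD, n = 2, log2 -1.18, SE 0.21, adjusted p = 0.00837).

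Across the 12 group means of log2 CPM, the 16926 tested genes were ranked by Pearson r with a member, as a description over groups that share libraries' depth and days. Nearest to Pygm were Atp2a1, the calcium pump of fast muscle, at 0.996, Sort1 at 0.996 and Ppfibp2 at 0.996. Nearest to Pgam2 were Cand2 at 0.994, Mir133b at 0.993 and Klhl31 at 0.993, and nearest to Eno3 were Tef at 0.983, mt-Nd4 at 0.982 and Dusp22 at 0.982. Eno1 was nearest to Gspt1 at 0.986, Rif1 at 0.981 and Wdr46 at 0.979, and Ldhb to Atp8a2 at 0.990, Lrrc28 at 0.986 and Cecr2 at 0.982. Among the members, Pygm and Pgam2 had an r of 0.987, Pygm and Pfkm of 0.948, and Pgam1 and Eno3 of -0.910, whereas Ldha and Pygm had 0.340.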

How the data were processed

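RNA-seq libraries of C2C12 cells and PMs were compared, 24 in all. The authors made the deposited raw counts per gene from poly-A RNA (TruSeq version 2 kit, which does not mark strand, so overlapping genes cannot be told apart). The submitters' processing notes name CASAVA 1.8.2, TopHat2 2.0.10, Bowtie2 2.1.0, HTSeq 0.6.1 and DESeq2 1.8.1, and the build mm9. Gene length, used for levels per kilobase, is another column deposited by the authors. Their normalized columns and 36 columns of 12 libraries not listed here were not used.

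Counts were tested with edgeR 4.0.16 (R 4.3.3, limma 3.58.1) by the quasi-likelihood F test on the group means (6 in the fit of a cell type, 12 in that of all libraries), with TMM factors and edgeR's filter on low counts, in 1 fit for C2C12 (15303 genes), 1 for PMs (16144) and 1 for all libraries (16926), which served comparisons between cell types. Adjusted p is Benjamini-Hochberg over all tested genes, and a call needed an adjusted p under 0.05 and a log2 fold change beyond 1. The p-values rest on the spread between the 2 libraries of a group, which the labels call biological duplicates. That spread is estimated for each gene over all groups of a fit, with information shared across genes. A p-value therefore does not measure the spread of the compared groups alone. Intervals cover 95%. On simulated counts with a log2 change of 2, the day 3 silencing test recovered 174 of 193 changed genes in C2C12 cells. It made 9 false calls there, and in PMs it recovered 191 of 199 with 3. The test between cell types recovered 140 of 194 with 7. The largest silencing effect of a member at day 3 was smaller in size, -1.93 for Pgam2 in C2C12 cells. The SD of the log2 difference between libraries at day 3 was 0.732 in C2C12 siTead1/4 and 0.437 in C2C12 siControl cells. Recovery at smaller log2 values, or with a spread set for each group, was not tested. Alternatives were RLE size factors, plain totals, no low-count filter, the replicate number as a block, DESeq2 1.42.0, all libraries in 1 fit, no minimum fold, each library left out, and copies summed to their parent gene.

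The text names the 10 members, Tead1, Tead4, the called pathway genes with the largest rise and fall in a comparison, and the 3 genes most like 5 of the members. Gm5506, and Pdk1 at day 0, were named after their values were seen. Members and lists were chosen with earlier results of these data known. Sequences and identities came from RefSeq promoters (GRCm38.p6) and GENCODE vM1 transcripts, with Python 3.11.15, Biopython 1.88 and matplotlib 3.10.9. Other parts of the pathway list were glycolysis, glycogen, and transport and regulators, and a hypoxia list and cell type markers were given as values.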

Additional observations from a re-analysis of the deposited data

Results flagged for a closer look

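The effect of siTead1/4 on Pgam2 at day 3 differed between the cell types in a direct test of the difference, by 1.63 on the log2 scale (PM minus C2C12), from -1.93 in C2C12 cells and -0.27 in PMs. It was called in 2 of 8 fits with 1 library left out. The change from day 0 to day 3 in siControl cells differed between PMs and C2C12 cells, again by a direct test, for 5 members. The differences, PM minus C2C12, were -3.83 for Pgam2, -2.47 for Pygm, 1.59 for Ldha, 1.44 for Hk2 and 1.34 for Aldoa on the log2 scale. Those of Pgam2, Pygm and Ldha were called in all 8 fits with 1 library left out, that of Hk2 in 3 of 8 and that of Aldoa in 1 of 8. What these differences stem from was not tested, and cell type, strain, medium and matrix cannot be told apart.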

How the results depend on the processing

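No value reversed its direction in any alternative among the called members. In C2C12 siTead1/4 against siControl cells, the count of members called at day 3 went from 1 to 3 with no filter on low counts, with DESeq2 and with all 24 libraries in 1 fit. At day 6 it went from 0 to 1 in the same 3 settings, and at day 0 from 0 to 1 with no filter. Over all genes the day 3 count of 195 became 1055 with no filter, 597 with DESeq2 and 690 in the fit of all libraries. It was 19 and 2 without siControl day 3 replicates 1 and 2, 16 without siTead1/4 day 3 replicate 2 and 429 without replicate 1. Plain totals moved the median of all genes most in PM siTead1/4 cells at day 3 against day 0, to -0.23, and to -0.20 in PM siControl cells. With no minimum fold, PM siTead1/4 cells had 4 members called at day 0 and 1 at day 3, in place of 0, where the count over all genes went from 420 to 1247 and from 532 to 1184. PMs against C2C12 siControl cells at day 6 had 8 members in place of 4, and 6427 of all genes in place of 4210. The day 3 difference in silencing between cell types went from 1 member to 2 with RLE size factors, plain totals or DESeq2 and to 4 with no filter. Counts over all genes are not given here for this difference, or for C2C12 silencing at days 0 and 6. These changes in members called are therefore not read as a result about the members.

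With the replicate block the day 3 difference in silencing between cell types also had 2 members called, with Ldhb added. PMs against C2C12 siControl cells at day 6 had 7 members in place of 4, with Pfkm, Eno3 and Ldha added. Counts over all genes are not given beside these values. The same holds for the ranges below with 1 library left out, except for C2C12 silencing at day 3. The block made the count over all genes in silenced PMs 586 in place of 420 at day 0, 792 in place of 532 at day 3 and 290 in place of 120 at day 6, with 0 members called in each. The labels do not say that a number marks a shared day or animal, and a comparison holds 2 pairs, so the libraries are taken to share only a number. The correlation of same-numbered deviations was above 0.1 in 12 of 16 comparisons within a cell type and below -0.1 in 1, and in PMs it was 0.127 to 0.503, highest in the silencing comparisons (0.377, 0.409 and 0.503). Between cell types at day 6 it was -0.17. With 1 library left out the counts ranged from 0 to 1 for C2C12 silencing at day 3, 3 to 5 for C2C12 siTead1/4 at day 3 against day 0, 3 to 6 at day 6 against day 0, 0 to 2 for the day 3 difference in silencing, and 3 to 4 for the difference in the siControl change. With 1 library left out, 298 values of called members were still called and 34 were not, and under the other alternatives 589 were and 3 were not. Summing copies was added after seeing the data. Every member had at least 23 counts in each library, and each group held 2 libraries, so calls rest on a spread shared across groups.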
